A study of Mus musculus with 15 samples.

Results

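CD4+ T cells without AMPKα1 were compared between the mesenteric lymph nodes (mLN), which drain the intestine, and the spleen of the same kind of recipient. The members were 8 of the 15 samples of the series, namely the 4 KO mLN and the 4 KO spleen samples, chosen by genotype and organ as labelled and not by any measured value. Sorted naive CD4+ T cells of C57BL/6 donors were injected intraperitoneally into Rag2-/- mice, which have no T or B cells of their own, and splenic or mLN T cells were sorted 6 weeks later from this transfer model of colitis. Mice were as a rule 6 to 8 weeks old when used. All donors carried loxP-flanked alleles of Prkaa1, the gene of AMPKα1. KO donors also carried CD4-Cre, which is active from the thymic stage at which CD4 is expressed, whereas WT donors had no Cre. The recipients kept their own myeloid, erythroid, stromal and innate lymphoid cells. The remaining samples, 4 of WT spleen and 3 of WT mLN, were used only to set a KO organ difference beside its WT counterpart.

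AMP-activated protein kinase (AMPK) is a trimer of a catalytic α subunit and regulatory β and γ subunits. It is switched on when AMP and ADP rise relative to ATP or when calcium enters the cell, and it slows lipid synthesis and mTORC1-driven protein synthesis while it favours mitochondrial oxidation. The mesenteric nodes receive antigen and dendritic cells from the gut, where vitamin A metabolism induces gut homing receptors on T cells. The spleen filters blood, holds red pulp macrophages and, in mice, blood-forming cells, and its circulating T cells leave through blood rather than lymph.

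Reads on genes came to 9523227 to 11283439 per KO spleen sample and 10091494 to 11212400 per KO mLN sample, and levels are given as CPM (counts per 1000000 counts of the library) scaled with the TMM method, not per length. Prkaa1 (chr15:5143861-5181899) was read at 19.998, 21.2, 18.5 and 20.5 CPM in KO spleen and 25.9, 32.4, 21.4 and 32.3 CPM in KO mLN. All 8 KO values lay below the WT samples, which ranged from 46.7 to 53.5 CPM in spleen and from 50.95 to 60.7 CPM in mLN. The counts cover the whole gene, so they do not show how much of the remaining signal comes from the deleted exons. Prkaa1 itself was higher in KO mLN than in KO spleen (log2 fold change 0.46 ± 0.14, adjusted p = 0.0361), a call that was lost without KO mLN replicate 2 or 4 or without any of the 4 KO spleen samples, with adjusted p up to 0.0979. Prkaa2, which encodes the other catalytic subunit AMPKα2, was at 0 in 7 of the 8 samples and at 0.103 CPM in KO spleen replicate 1, under the 0.282 CPM that 3 counts make in such a library. Cd4 stood at 1199, 1228, 1172 and 1219 CPM in KO spleen and 1280.3, 1304, 1272 and 1202 CPM in KO mLN, and all 11 CD4 T cell markers were read in all 8 samples.

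Markers of other cells were also read, and several moved with the organ. Summed neutrophil markers came to 235 to 819 CPM in KO spleen and 24.3 to 81.3 CPM in KO mLN, and 7 of the 9 tested members were higher in spleen. Macrophage and monocyte markers summed to 156 to 459 CPM in KO spleen, with replicate 3 highest, and to 91.2 to 112 CPM in KO mLN, with 8 of 12 higher in spleen. The values for red pulp macrophage markers were 99.6 to 280.4 and 42.2 to 83.2 CPM with 5 of 6 higher in spleen, and those for mast cell and basophil markers were 24.8 to 34.6 and 4.26 to 10.4 CPM with 3 of 4 higher in spleen. Erythroid markers (63.5 to 159 against 32.6 to 77.8 CPM) were higher in spleen for 4 of 11 members. These counts use an adjusted p under 0.05, by which 13.9% of all genes tested were higher in KO spleen and 11.4% in KO mLN. On the mLN side stood Cd8a, the B cell gene Pax5, the immunoglobulin heavy chain gene Ighm, the smooth muscle gene Myh11 and the plasmacytoid dendritic cell gene Siglech. The call of Pax5 was lost without KO mLN replicate 2 or 3 or without KO spleen replicate 1, 3 or 4. Summed B cell markers were at 3.71 to 6.20 CPM in KO spleen and 6.47 to 12.99 CPM in KO mLN, where Ms4a1 was at 0 in all 4 samples. Dendritic cell markers ranged from 377 to 743 and from 382 to 985 CPM, and NK cell markers from 123 to 140.4 and from 141 to 193 CPM. In such bulk samples, fewer cells of a type and less RNA per cell cannot be told apart. The part of these cells in the differences described for the T cells was not tested, except where a value is given.

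In total, 763 of 14240 genes tested (5.36%) differed between the organs in KO T cells, with an adjusted p under 0.05 and a change of more than 1 on the log2 scale. Of these, 193 were higher in mLN (1.36% of genes tested) and 570 were higher in spleen (4.0%). The 2 groups of 4 samples did not overlap for 723 of the 763 genes, beside 28.8% of all genes tested. At an adjusted p under 0.05 without a limit on size, which is the call used for gene lists, 1626 genes (11.4%) were higher in mLN and 1976 (13.9%) in spleen. Each count over a KO gene list below is to be read beside these shares. A count over a list in WT cells is to be read beside 9.70% of genes higher in WT mLN and 10.8% in WT spleen. A count near its share is no trait of the list. Leaving out 1 of the 8 samples gave 653 to 874 genes past both limits. The call of 307 of the 763 genes was lost in at least 1 of these fits, and none reversed. For 19 genes higher in spleen, no mLN sample exceeded 3 counts, whereas the reverse held for 0 genes.

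**Figure D1:**
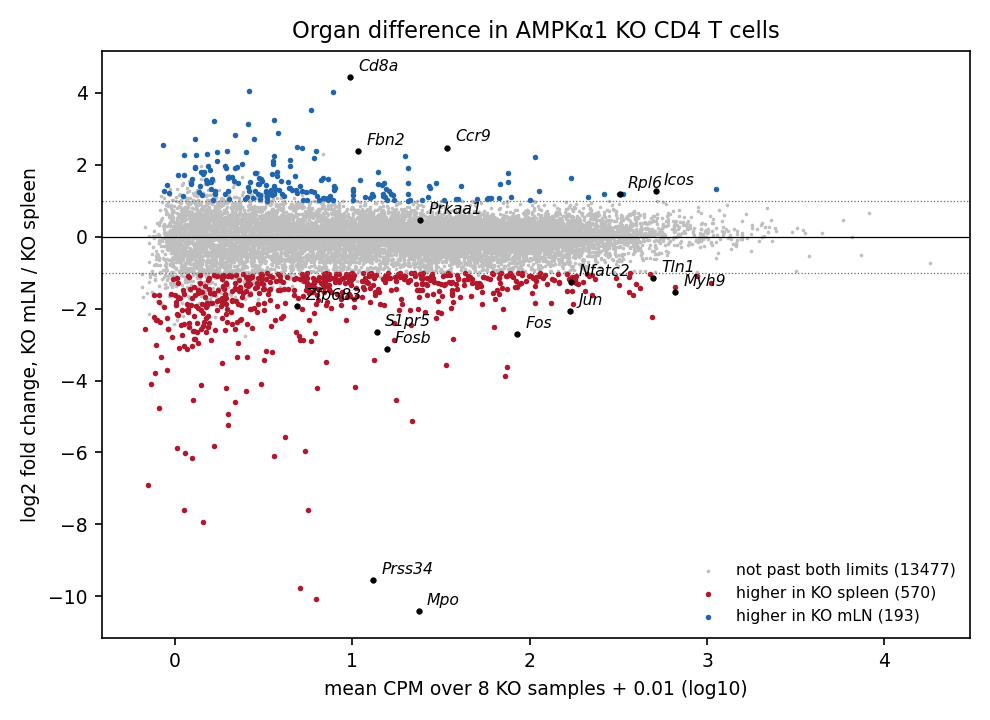
The log2 fold change between KO mLN and KO spleen (vertical axis) is plotted against the mean CPM of the 8 KO samples on a log10 axis, with 1 point per gene. Blue points mark the 193 genes higher in mLN and red points the 570 genes higher in spleen, and dotted lines mark the limit of 1 on the log2 scale; the points of Prss34 and Mpo are fitted values against mLN samples at or near 0.

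Among the protein-coding genes higher in KO mLN, Rpl6 had the smallest p-value. This gene encodes a protein of the large ribosomal subunit (chr5:121204481-121209241) and stood at 183, 181, 215 and 204 CPM in KO spleen and 478, 455, 417 and 443 CPM in KO mLN (log2 fold change 1.18 ± 0.07, adjusted p = 2.13e-06). Slfn2, a Schlafen family member needed for T cell quiescence (chr11:83065112-83070678), stood at 182, 182, 206 and 199 CPM in KO spleen and 496, 449, 405 and 432 CPM in KO mLN (log2 fold change 1.19 ± 0.08, adjusted p = 2.28e-06). Icos, the costimulatory receptor of follicular helper and regulatory T cells (chr1:60977927-61000320), stood at 307, 284, 333 and 263 CPM in KO spleen and 819.8, 801, 619 and 675 CPM in KO mLN (log2 fold change 1.28 ± 0.10, adjusted p = 1.01e-05). In each of these genes the lowest mLN sample lay above the highest spleen sample by more than the range within either group. Surf1, which is needed to assemble cytochrome c oxidase, ranged from 36.1 to 39.6 CPM in KO spleen and from 74.4 to 95.4 CPM in KO mLN (log2 fold change 1.09 ± 0.09, adjusted p = 1.66e-05). The remaining genes named by rank on the mLN side were Rps26 (log2 fold change 1.20), encoding a protein of the small ribosomal subunit, Cebpg (1.40), a bZIP transcription factor, Fhad1 (2.88), Fbn2 (2.37), encoding the extracellular matrix protein fibrillin-2, Elovl6 (1.14), a fatty acid elongase, Ldhd (1.56), the mitochondrial D-lactate dehydrogenase, and Slamf6 (1.18), a receptor of the SLAM family. Cd8a, the α chain of CD8, was read at 0.309, 0.175, 1.23 and 1.63 CPM in KO spleen and 18.1, 16.5, 16.6 and 23.2 CPM in KO mLN (log2 fold change 4.43 ± 0.42, adjusted p = 3.18e-05). Cd8b1, the β chain, stood at 1.55, 1.40, 1.71 and 2.80 CPM in KO spleen and 1.49, 7.01, 3.67 and 5.21 CPM in KO mLN, and its difference did not pass the test (adjusted p = 0.0667).

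The genes named by rank on the spleen side had varied roles. Prss34, a mast cell and basophil protease, was read at 25.3, 20.8, 30.995 and 27.3 CPM in KO spleen and 0, 0.0922, 0 and 0 CPM in KO mLN and was at least 92.9-fold higher in KO spleen, computed against 3 counts per mLN library (adjusted p = 1.61e-07). Mpo, the myeloperoxidase of neutrophils and their precursors, stood at 40.6, 33.9, 73.2 and 41.4 CPM in KO spleen and 0.0932, 0, 0 and 0 CPM in KO mLN and was at least 168-fold higher in spleen (adjusted p = 5.10e-07). Both are markers of cells other than T cells. Myh9, the heavy chain of non-muscle myosin IIA (chr15:77760587-77842175), stood at 1046, 1005, 977 and 911 CPM in KO spleen and 363, 346, 343 and 312 CPM in KO mLN (log2 fold change -1.55 ± 0.07, adjusted p = 3.82e-07). Cap1, which turns over actin filaments, stood at 634, 595, 578 and 632 CPM in KO spleen and 234, 234, 239 and 207 CPM in KO mLN (log2 fold change -1.44 ± 0.07, adjusted p = 4.34e-07). Tln1, encoding talin, which links integrins to actin, stood at 703, 676, 659 and 695 CPM in KO spleen and 305, 294, 322 and 325 CPM in KO mLN (log2 fold change -1.15 ± 0.06, adjusted p = 6.33e-07). Zbtb7b, encoding ThPOK, the transcription factor that sets the CD4 lineage, stood at 106, 110.4, 123 and 112 CPM in KO spleen and 24.2, 31.998, 28.1 and 30.4 CPM in KO mLN (log2 fold change -1.998 ± 0.10, adjusted p = 5.86e-07). For these 4 genes the highest mLN sample stayed far below the lowest spleen sample. The others were Bag6 (-1.56), a chaperone of the protein quality control system, Prex1 (-1.33), an exchange factor for Rac, Rnf44 (-1.27), a RING finger gene, Unc13d (-1.12), which primes secretory granules for release, Nfatc2 (-1.26), encoding the calcium-regulated factor NFAT1, and Mink1 (-1.19), a kinase of the germinal centre kinase family. With offsets for GC content and transcript length, Unc13d, Nfatc2 and Rnf44 stood at -0.69, -0.94 and -0.999, so that none of the 3 passed the limit of 1 on size.

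Spleen-higher genes were richer in G and C and longer than the rest. The median GC content was 54.1% for the 570 genes higher in spleen, 48.9% for the 193 higher in mLN and 49.9% for all genes tested, and the median transcript lengths were 1608, 1388 and 1320.5 bases. Across genes, which are not independent replicates, Spearman's rho of the log2 fold change was -0.09 with GC content and -0.19 with length. With the offsets, 217 genes were higher in mLN and 449 in spleen past both limits.

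Some homing and retention genes differed between the organs, in both directions. Ccr9, the chemokine receptor that guides T cells to the small intestine (chr9:123678439-123784330), stood at 7.63, 11.4, 11.8 and 10.04 CPM in KO spleen and 32.1, 45.3, 112 and 41.8 CPM in KO mLN (log2 fold change 2.48 ± 0.36, adjusted p = 0.000546). All mLN samples exceeded all spleen samples, and mLN replicate 3 was far above the other 3. Itgae, encoding the αE integrin (CD103) that binds epithelial E-cadherin, stood at 47.8, 49.9, 33.2 and 20.3 CPM in KO spleen and 174, 233, 241 and 58.3 CPM in KO mLN (log2 fold change 2.20 ± 0.40, adjusted p = 0.00212), with mLN replicate 4 closest to the spleen samples. Ccr7, which brings T cells into lymph nodes, stood at 49.1, 45.9, 18.7 and 29.7 CPM in KO spleen and 120.2, 101, 87.3 and 93.4 CPM in KO mLN (log2 fold change 1.47 ± 0.24, adjusted p = 0.00128). Cxcr3, the receptor of interferon-induced chemokines, was higher in mLN by less and more evenly, at 741 to 817 CPM against 545 to 584 CPM (log2 fold change 0.44 ± 0.06, adjusted p = 0.000327). Selplg, the selectin ligand PSGL-1, and Gpr183, the oxysterol receptor EBI2, were also higher in mLN (log2 fold changes 0.57 and 0.69).

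In the opposite direction, S1pr5, a receptor for sphingosine-1-phosphate that drives exit from tissue, stood at 33.2, 21.7, 25.9 and 13.6 CPM in KO spleen and 4.38, 1.66, 2.97 and 6.20 CPM in KO mLN (log2 fold change -2.65 ± 0.36, adjusted p = 0.000374). Zfp683, encoding Hobit, a transcription factor of tissue-resident and cytotoxic lymphocytes, stood at 8.25, 7.42, 8.25 and 6.87 CPM in KO spleen and 1.21, 2.31, 2.78 and 1.89 CPM in KO mLN (log2 fold change -1.93 ± 0.27, adjusted p = 0.000389). Rara, the retinoic acid receptor α, and Cd69, which retains T cells in tissue by removing S1PR1 from the surface, were likewise higher in spleen (log2 fold changes -1.09 and -0.96). For S1pr1, the main exit receptor, the groups overlapped (log2 fold change -0.10 ± 0.20, adjusted p = 0.756). Of the 23 tested genes of the gut homing, egress and retention list, 7 (30.4%) were higher in mLN and 4 (17.4%) in spleen. Over all genes these shares were 11.4% and 13.9%, so the spleen count is near that of all genes. The median log2 fold change was 0.03 beside 0.01 over all genes tested. Without KO spleen replicate 1, 4 members were higher in mLN. Of 17 chemokine receptors, 5 were higher in mLN and 1, Xcr1, in spleen, the latter being lost without any 1 library but KO mLN replicate 3. Itgal, encoding the αL chain of LFA-1, was higher in spleen (log2 fold change -0.58 ± 0.07, adjusted p = 0.000113), as was Itgav (-0.56). Of 17 integrins, 2 were higher in each organ (11.8% each, beside 11.4% of all genes in mLN and 13.9% in spleen). Without KO mLN replicate 2 the counts were 1 in mLN and 4 in spleen, and the mLN count was also 1 without KO mLN replicate 1 or 3 or KO spleen replicate 1 or 4.

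**Figure D2:**
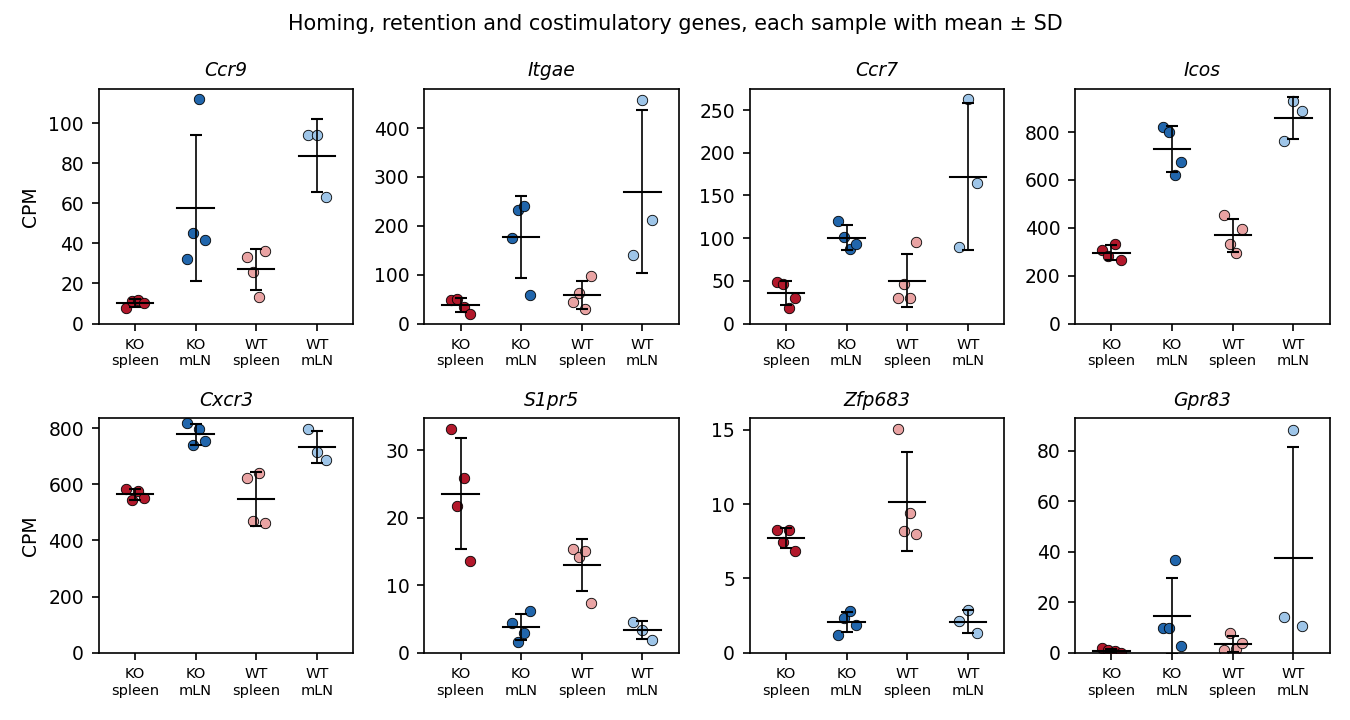
Each point is the CPM of 1 sample for 8 homing, retention and costimulatory genes in KO spleen, KO mLN, WT spleen and WT mLN (4, 4, 4 and 3 samples), with horizontal bars for the mean and error bars for the SD, cut at 0. In KO cells all 4 mLN samples lie above all 4 spleen samples for Ccr9, Itgae, Ccr7, Icos, Cxcr3 and Gpr83, and below them for S1pr5 and Zfp683.

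Genes of naive and quiescent T cells were more often higher in KO mLN. Of 23 tested, 10 were higher in mLN and 1, Ramp1, in spleen (median log2 fold change 0.39). Besides Ccr7, the members included Lef1 and Tcf7, the transcription factors of naive and stem-like T cells. Lef1 stood at 176, 157, 131 and 135 CPM in KO spleen and 288, 248, 198 and 225 CPM in KO mLN (log2 fold change 0.66 ± 0.12, adjusted p = 0.00256), and Tcf7 stood 0.39 higher in mLN on the log2 scale (adjusted p = 0.00929). Il7r, the receptor chain for the survival cytokine IL-7, stood at 283, 326, 219 and 303 CPM in KO spleen and 562, 486, 365 and 368 CPM in KO mLN (log2 fold change 0.63 ± 0.15, adjusted p = 0.0104). St8sia6, a sialyltransferase gene, was 2.20 higher on the log2 scale at low levels of 0.452 to 4.37 CPM in spleen and 5.39 to 11.8 CPM in mLN.

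The list of regulatory T cell genes had 8 of 18 members higher in mLN and 0 in spleen, with a median log2 fold change of 0.63. Gpr83, a receptor enriched on regulatory T cells, had the largest difference of this list, at 1.75, 1.14, 0.664 and 0 CPM in KO spleen and 9.97, 9.68, 36.6 and 2.51 CPM in KO mLN (log2 fold change 4.03 ± 0.85, adjusted p = 0.00512). The spread among mLN samples was wide, and replicate 4 was the lowest. Ctla4, the inhibitory receptor that competes with CD28, stood at 35.6, 42.7, 36.9 and 32.7 CPM in KO spleen and 102, 86.4, 77.9 and 48.04 CPM in KO mLN (log2 fold change 1.07 ± 0.19, adjusted p = 0.0021). Ikzf4 (Eos), Izumo1r (folate receptor 4), Ebi3, and the TNF receptor genes Tnfrsf18 (GITR) and Tnfrsf4 (OX40) were higher as well, by 1.19, 0.996, 1.01, 0.59 and 0.66. Foxp3, the lineage factor itself, stood at 21.3, 15.5, 13.6 and 9.95 CPM in KO spleen and 25.7, 24.6, 43.02 and 7.36 CPM in KO mLN, with overlapping groups and no call (log2 fold change 0.72 ± 0.41, adjusted p = 0.227). Il2ra, the IL-2 receptor α chain, was not called either (log2 fold change 0.76 ± 0.30, adjusted p = 0.0846). In both genes, KO mLN replicate 4 was below all 4 spleen samples, and without it both were called, Foxp3 with a log2 fold change of 1.03 (adjusted p = 0.0172) and Il2ra with 1.03 (adjusted p = 0.0005). In WT cells, 9 of the 18 genes were higher in mLN, Foxp3 among them (log2 fold change 1.34, adjusted p = 0.03). The difference between genotypes did not pass for Foxp3 (interaction adjusted p = 1).

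Follicular helper genes showed 7 of 19 members higher in mLN and 1 in spleen (median 0.41). With Icos and Slamf6 went Cd200, at 30.1, 29.5, 41.3 and 28.1 CPM in KO spleen and 60.8, 61.5, 61.3 and 56.4 CPM in KO mLN (log2 fold change 0.87 ± 0.12, adjusted p = 0.000473), and Id3, at 0.79. The transcription factor Maf, which also serves Th17 cells, was the member higher in spleen (log2 fold change -0.65 ± 0.09, adjusted p = 0.00043), with a second one without KO mLN replicate 4. Bcl6, the factor that specifies these cells, and the receptors Cxcr5 and Pdcd1 were not called, with log2 fold changes of 0.01 ± 0.21, 0.55 ± 0.32 and -0.07 ± 0.08. Among 27 TNF family ligands and receptors, 9 were higher in mLN and 2 in spleen. Tnfsf8 (CD30 ligand) and Tnfrsf13b (TACI) led the mLN side (log2 fold change 0.61 ± 0.11, adjusted p = 0.00266 and log2 fold change 0.91 ± 0.20, adjusted p = 0.00706), and Tnfsf10, encoding the death ligand TRAIL, led the spleen side (log2 fold change -0.62 ± 0.11, adjusted p = 0.00169). Without KO spleen replicate 3 the counts were 5 and 1, and without KO mLN replicate 2 or KO spleen replicate 4 only 1 member was higher in spleen.

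Among Th1 genes the calls were few and near the shares of all genes. Of those tested, 19.0% were higher in spleen and 4.76% in mLN, beside 13.9% and 11.4% of all genes. Tbx21, encoding T-bet, stood at 244, 199, 268 and 289 CPM in KO spleen and 143, 122, 143 and 164 CPM in KO mLN (log2 fold change -0.82 ± 0.12, adjusted p = 0.000493), and Il12rb1, a chain of the IL-12 and IL-23 receptors, at 156, 145, 192 and 198 CPM in KO spleen and 82.3, 72.02, 115 and 92.04 CPM in KO mLN (log2 fold change -0.95 ± 0.14, adjusted p = 0.000721). The groups of 4 did not overlap for either gene. Ifng, the Th1 cytokine, stood at 139, 106, 221 and 218 CPM in KO spleen and 125, 89.2, 82.3 and 108 CPM in KO mLN (log2 fold change -0.78 ± 0.22, adjusted p = 0.022). Its call was lost without KO mLN replicate 2 or 3 or KO spleen replicate 3 or 4, with adjusted p up to 0.0702. Of 21 Th1 genes, 4 were higher in spleen and 1, Cxcr3, in mLN, with a median log2 fold change of -0.04, and the summed level was 6754 to 8302 CPM in KO spleen and 7134 to 9051 CPM in KO mLN, with overlap. The count in spleen was 2 without KO mLN replicate 2 or KO spleen replicate 3 or 4, and the count in mLN was 2 without KO mLN replicate 2 or 4. Summed neutrophil and macrophage markers were also higher in KO spleen than in KO mLN, as given above. The part of such cells in the Th1 calls was not tested.

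Gata3, the Th2 factor, had a log2 fold change of -0.03 ± 0.17, with overlapping groups. Il17a was too low to be tested, at 0.309, 0.786, 0.664 and 0 CPM in KO spleen and 2.61, 0.738, 0.892 and 0 CPM in KO mLN. Of 19 Th17 genes, 3 (15.8%) were higher in spleen, among them Maf and Cd93, and 1 (5.26%) in mLN, which was lost without KO mLN replicate 2 or KO spleen replicate 1. Over all genes these shares were 13.9% and 11.4%. Cd93 was near 0 in KO mLN, at 0.892 CPM in replicate 3 and 0 to 0.0932 CPM in the others. Of 10 Th2 genes, 3 were higher in mLN, led by Penk, encoding proenkephalin (log2 fold change 1.03 ± 0.23, adjusted p = 0.00653), and 1, Stat6, in spleen. Those counts were 5 in mLN without KO mLN replicate 4 and 2 in spleen without KO mLN replicate 3.

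All 4 cytotoxic genes called, of 25 tested, were higher in mLN (16.0%, beside 11.4% of all genes). Gzma, encoding granzyme A, stood at 34.6, 37.6, 32.9 and 25.1 CPM in KO spleen and 81.4, 60.4, 71.3 and 59.1 CPM in KO mLN (log2 fold change 1.04 ± 0.14, adjusted p = 0.000383). Serpinb6b, a granule protease inhibitor, Ctsw, encoding cathepsin W, and Gzmk, encoding granzyme K, differed by 1.09, 0.62 and 0.64. The median over the list was -0.05. Tigit, an inhibitory receptor, stood at 108, 119, 109 and 109.6 CPM in KO spleen and 183, 165, 172 and 171 CPM in KO mLN (log2 fold change 0.61 ± 0.07, adjusted p = 7.06e-05), and 5 of the 22 inhibitory receptors and exhaustion regulators, Ctla4 and Cd200 included, were higher in mLN. The single member higher in spleen, Nr4a2, lost its call without any 1 library but KO mLN replicate 4, without which 3 members were higher in spleen. Among 33 cytokine receptors, Il1r2, the decoy receptor for IL-1, was the clearest, at 30.4, 21.8, 60.1 and 22.3 CPM in KO spleen and 114, 129, 97.5 and 129 CPM in KO mLN (log2 fold change 1.78 ± 0.28, adjusted p = 0.000834). The list as a whole had 2 members higher in mLN and 4 in spleen, with 5 in mLN without KO mLN replicate 4 and 2 in spleen without KO spleen replicate 4.

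**Figure D3:**
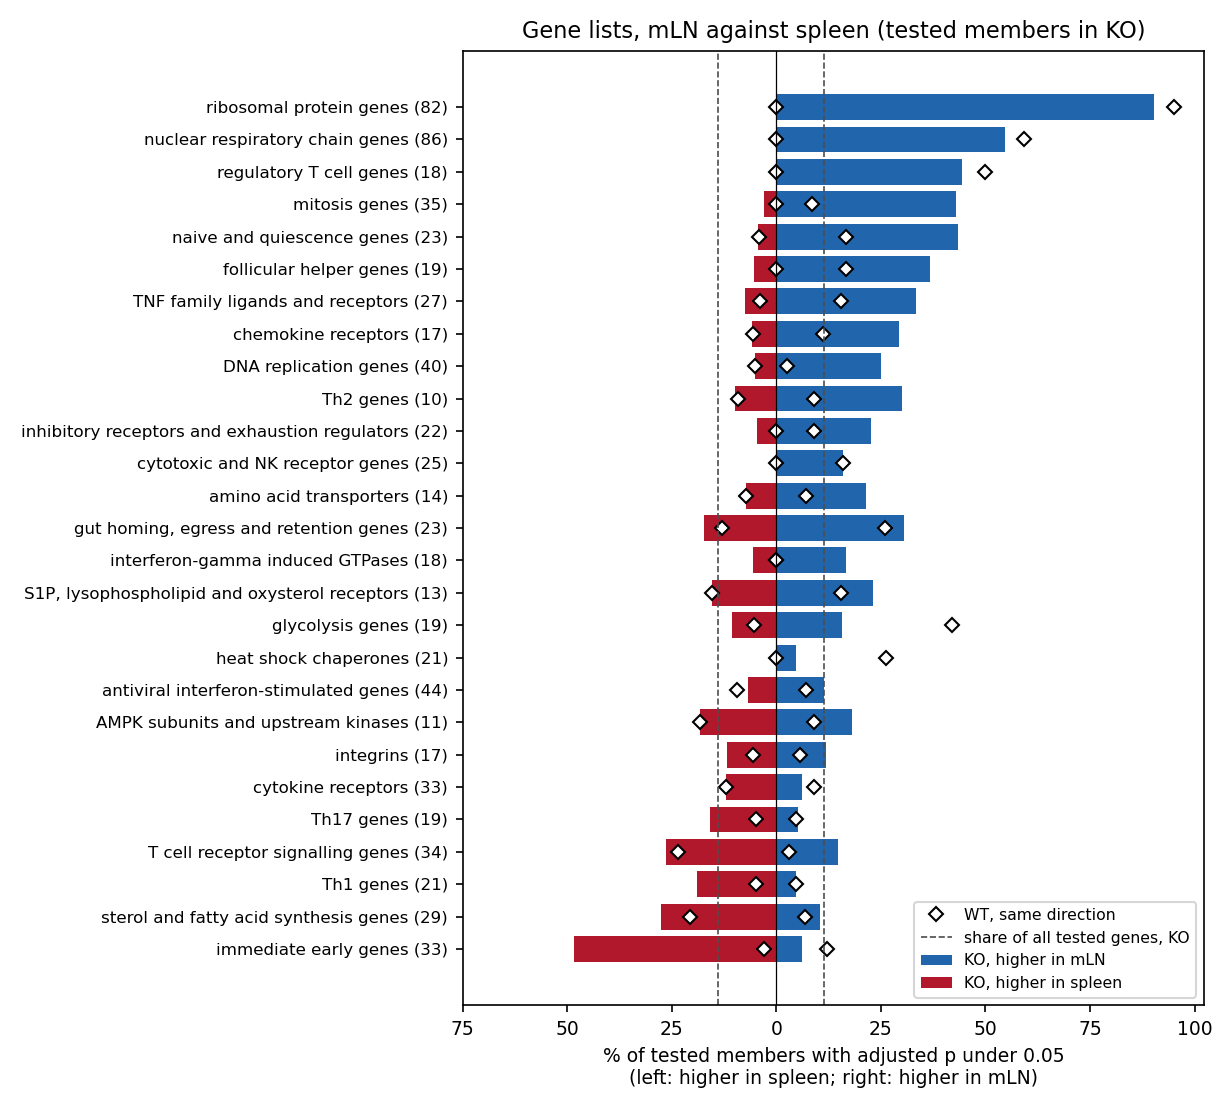
For gene lists with at least 10 tested members (their number in brackets), cell type marker lists left out, bars give the percentage of members with an adjusted p under 0.05 in KO cells, to the right for genes higher in mLN and to the left for genes higher in spleen. Diamonds give the same for WT cells, and dashed lines mark the share among all genes tested in KO (11.4% and 13.9%); of the lists plotted, ribosomal protein genes reach furthest to the right and immediate early genes furthest to the left.

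A large share of calls on the spleen side was found for immediate early genes, which lymphocytes and other cells transcribe within minutes of a stimulus. Of 33 tested, 16 were higher in KO spleen and 2 in KO mLN, with a median log2 fold change of -0.37. Fos and Fosb encode AP-1 subunits that pair with Jun proteins. Fos (chr12:85473890-85477273) stood at 177, 147, 152 and 113 CPM in KO spleen and 40.8, 28.9, 11.7 and 9.43 CPM in KO mLN (log2 fold change -2.72 ± 0.37, adjusted p = 0.000374). Fosb (chr7:19302696-19310051) stood at 35.1, 26.2, 27.5 and 23.2 CPM in KO spleen and 6.06, 3.78, 2.08 and 0.988 CPM in KO mLN (log2 fold change -3.13 ± 0.38, adjusted p = 0.000171). Jun (chr4:95049034-95052222) stood at 282, 227, 326 and 259 CPM in KO spleen and 87.4, 83.2, 55.9 and 36.4 CPM in KO mLN (log2 fold change -2.08 ± 0.23, adjusted p = 8.63e-05). In all 3 genes the groups were far apart, and mLN replicate 4 had the lowest value. Dusp1, the phosphatase that shuts off MAP kinases (chr17:26505590-26562128), stood at 90.1, 86.1, 61.2 and 55.5 CPM in KO spleen and 27.95, 36.7, 26.2 and 21.7 CPM in KO mLN (log2 fold change -1.40 ± 0.19, adjusted p = 0.00035). Ppp1r15a, encoding GADD34, which restores translation after stress (chr7:45522916-45526268), stood at 88.96, 90.97, 69.6 and 56.1 CPM in KO spleen and 39.4, 36.1, 21.2 and 23.8 CPM in KO mLN (log2 fold change -1.36 ± 0.21, adjusted p = 0.000861), and Cd69, the early activation antigen, at 617, 539, 524 and 524 CPM in KO spleen and 361, 351, 212 and 224 CPM in KO mLN (log2 fold change -0.96 ± 0.16, adjusted p = 0.0014). Junb, Egr1 and Fosl2, which encode transcription factors of the same response, differed by -1.04, -1.08 and -1.39. Myc, the growth regulator, was higher in mLN instead (log2 fold change 0.98 ± 0.18, adjusted p = 0.00237). The other member on the mLN side, Rgs1, lost its call without any 1 library but KO mLN replicate 4.

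To show where a motif common in these windows lies, the 250 bases before the start of the 4 members with the largest differences among those described are shown from the RefSeq promoter table (GRCm38.p6), 5′ to 3′ on the strand of the gene. Capitals mark TGACG or its reverse complement CGTCA, the core of the cAMP response element. The windows are Fosb at chr7:19310046-19310295 (minus strand), Fos at chr12:85473640-85473889 (plus strand), Jun at chr4:95052223-95052472 (minus strand) and Dusp1 at chr17:26508473-26508722 (minus strand).
Fosb: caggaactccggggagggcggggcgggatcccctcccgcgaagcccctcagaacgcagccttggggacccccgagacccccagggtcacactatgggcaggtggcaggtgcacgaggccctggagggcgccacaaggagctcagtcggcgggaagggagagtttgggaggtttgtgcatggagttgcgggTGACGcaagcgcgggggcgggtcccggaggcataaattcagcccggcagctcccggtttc
Fos: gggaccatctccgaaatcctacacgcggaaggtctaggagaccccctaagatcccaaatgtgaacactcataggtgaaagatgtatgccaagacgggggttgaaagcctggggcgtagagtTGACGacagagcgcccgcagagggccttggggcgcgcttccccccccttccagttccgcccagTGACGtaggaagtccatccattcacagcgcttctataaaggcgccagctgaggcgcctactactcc
Jun: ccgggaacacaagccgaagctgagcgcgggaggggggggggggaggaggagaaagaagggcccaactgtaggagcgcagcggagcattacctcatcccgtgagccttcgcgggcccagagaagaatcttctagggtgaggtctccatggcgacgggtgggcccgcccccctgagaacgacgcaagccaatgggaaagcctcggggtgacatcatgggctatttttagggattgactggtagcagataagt
Dusp1: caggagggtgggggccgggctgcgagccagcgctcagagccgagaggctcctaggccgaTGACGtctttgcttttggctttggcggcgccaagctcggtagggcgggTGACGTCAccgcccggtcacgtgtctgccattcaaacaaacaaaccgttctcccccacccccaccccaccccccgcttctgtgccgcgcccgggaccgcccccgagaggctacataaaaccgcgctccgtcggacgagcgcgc
The match of Fosb begins 60 bases before the start, those of Fos 129 and 66 bases before it, and those of Dusp1 191, 143 and 140 bases before it, the last pair being the overlapping strands of 1 full element TGACGTCA. These letters are not in the window of Jun. Of the 16 immediate early genes higher in KO spleen, 11 had a window, and 7 of these (63.6%) held TGACG, beside 17 of 28 members (60.7%) for the whole list and 19.8% of 27025 genes with a window. TGACGTCA was found in 2 of the 11, in 4 of the 28 members (14.3%) and in 1.77% of all genes. The CArG box of serum response factor was found in 0 of the 11, in 3 of the 28 members (10.7%) and in 1.62% of all genes. Bases further than 250 before the start were not searched, so a motif not found in a window may lie outside it. Ribosomal protein genes, which went the other way, held TGACG in 27 of 64 windows (42.2%). A match describes letters in the window and is not a measured binding site.

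In WT cells few of these genes were called. There, 1 of the 33 members was higher in WT spleen and 4 were higher in WT mLN, where 10.8% of all genes tested were higher in spleen and 9.70% in mLN. Fos ranged from 21.4 to 58.2 CPM in WT spleen and from 25.03 to 64.2 CPM in WT mLN (log2 fold change -0.07), so that for this gene WT samples of both organs lay below all KO spleen samples. Summed over the list, however, KO spleen (4793 to 4935 CPM) lay within the range of WT spleen (4231 to 5052 CPM). The KO mLN sums, at 3307 to 3782 CPM, lay below all WT samples, with WT mLN at 4297 to 5650.5 CPM. Cd69 ranged from 327 to 471 and from 339 to 608 CPM in WT cells. In the test of the difference between the genotypes, 9 members had an interaction p under 0.05 toward spleen in KO and 0 toward mLN, beside 4.22% of all genes tested in either direction. With edgeR, none of the 9 passed after adjustment over all genes, as for Fos (difference -2.64 ± 0.60 on the log2 scale, adjusted p = 0.825), Ppp1r15a (-1.34 ± 0.29, adjusted p = 0.825) and Cd69 (-1.21 ± 0.27, adjusted p = 0.825), whereas DESeq2 called Ppp1r15a and Cd69, and edgeR with the replicate block called Ppp1r15a. In simulated counts for this test, 11.7% of the DESeq2 calls and 5.16% of the edgeR calls fell on unchanged genes. Neutrophil marker sums separated the organs in WT as in KO cells, at 306 to 903 against 73.9 to 125 CPM. Macrophage and monocyte marker sums overlapped in WT cells, at 122 to 224 CPM in spleen and 56.5 to 259 CPM in mLN. Of these markers, 8 of 12 were higher in spleen in KO cells (median log2 fold change -1.55) and 1 of 11 in WT cells (-0.33), and 4 of 12 had an interaction p under 0.05 toward spleen in KO. Without KO spleen replicate 3, which had the highest macrophage marker sum, the log2 fold change of Fos was -2.70. The remaining KO spleen samples still had macrophage marker sums of 156 to 192 CPM, above the 91.2 to 112 CPM of KO mLN. The part of macrophages in the levels of these genes was not tested.

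**Figure D4:**
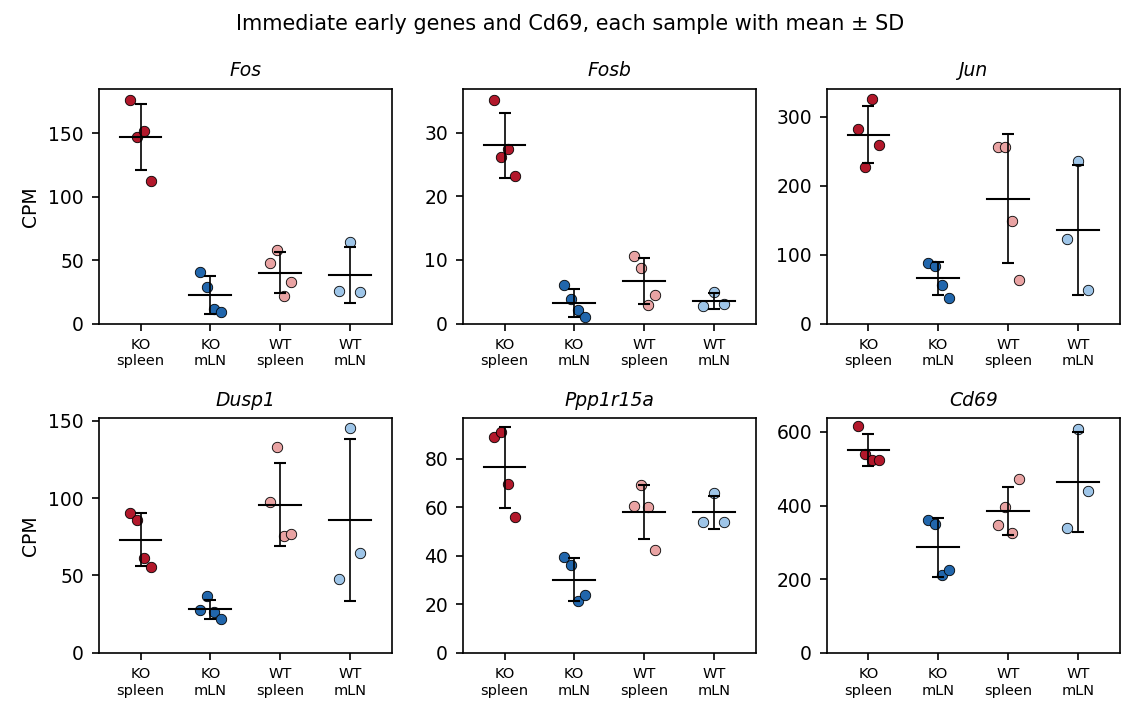
Each point is the CPM of 1 sample for Fos, Fosb, Jun, Dusp1, Ppp1r15a and Cd69 in KO spleen, KO mLN, WT spleen and WT mLN (4, 4, 4 and 3 samples), with bars for the mean and the SD. In every panel the 4 KO spleen samples lie above the 4 KO mLN samples, while the WT groups overlap.

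Genes of T cell receptor signalling split without a common direction. Of 34 tested, 5 were higher in mLN and 9 in spleen. On the mLN side were Cd3d and Cd28 (log2 fold change 0.48 ± 0.06, adjusted p = 0.000237 and log2 fold change 0.40 ± 0.08, adjusted p = 0.0033), encoding a receptor chain and the main costimulatory receptor. On the spleen side were Nfatc2 and Nfatc1, encoding calcium-regulated transcription factors, and Cbl, a ubiquitin ligase that restrains the receptor. Nfatc1 stood at 413, 419, 395 and 374 CPM in KO spleen and 209, 268, 299 and 234 CPM in KO mLN (log2 fold change -0.68 ± 0.10, adjusted p = 0.000703), and Cbl differed by -0.71. With GC and length offsets the counts were 8 and 8.

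Part of the cell division genes were higher in KO mLN. Of 35 mitosis genes, 15 were higher in mLN and 1 in spleen, with a median log2 fold change of 0.47. Their summed level was 1042 to 1231 CPM in KO spleen and 1350.1 to 1774 CPM in KO mLN, without overlap. Cdc20, the activator of the anaphase-promoting complex, stood at 28.8, 25.4, 29.95 and 25.4 CPM in KO spleen and 59.1, 44.7, 49.9 and 67.97 CPM in KO mLN (log2 fold change 0.997 ± 0.13, adjusted p = 0.000327). Kif2c, encoding a kinesin that corrects chromosome attachment, and Birc5, encoding survivin, differed by 1.02 and 0.89. Mki67, the usual proliferation marker, stood at 113, 98.9, 106 and 99.7 CPM in KO spleen and 108, 85.5, 104 and 100.3 CPM in KO mLN and was not called (log2 fold change -0.09 ± 0.09, adjusted p = 0.494). The spleen-side member, Incenp, was lost in 6 of the 8 fits without 1 library, those without KO mLN replicate 1 or 4 or any spleen sample. In WT cells 3 of 35 mitosis genes were higher in mLN, beside 9.70% of all genes tested. An interaction p under 0.05 toward mLN in KO was found for 9 members and toward spleen for 0, and none passed after adjustment (lowest adjusted p 0.82).

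DNA replication genes moved less, with 10 of 40 higher in mLN and 2 in spleen. Prim1, encoding the primase subunit, and Rrm1, the large subunit of ribonucleotide reductase, led the mLN side (log2 fold change 0.71 ± 0.12, adjusted p = 0.00149 and log2 fold change 0.47 ± 0.10, adjusted p = 0.00503), and Gins2, of the replicative helicase, led the spleen side (log2 fold change -0.52 ± 0.09, adjusted p = 0.00181). The count in mLN was 5 without KO spleen replicate 2 and 6 without KO spleen replicate 3 or 4. In WT cells it was 1, with 2 in spleen, beside 9.70% and 10.8% of all genes tested.

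The most uniform group was that of cytosolic ribosomal proteins. Of 82 tested, 74 were higher in KO mLN and 0 in KO spleen, with a median log2 fold change of 0.61 where that of all genes was 0.01. Their summed level was 17854 to 20741 CPM in KO spleen and 28363 to 33109 CPM in KO mLN, or 1.82 to 2.06% against 2.84 to 3.20% of reads on genes. After Rpl6 came Rpl3 (log2 fold change 0.997 ± 0.07, adjusted p = 4.70e-06) and Rpl36a (log2 fold change 0.97 ± 0.07, adjusted p = 5.83e-06), both of the large subunit. Rpl36a stood at 68.1, 68.2, 78.1 and 70.5 CPM in KO spleen and 141, 143, 137 and 146 CPM in KO mLN. The 8 members not called, among them Rpl24, Rpl5, Rps12 and Rpl36al, had log2 fold changes from -0.31 to 0.35. Counts were close to the same with GC and length offsets (72 and 0), and 78 of 82 were higher in mLN in WT cells. These genes have many near-identical pseudogenes, and reads that matched several places were left out of the counts. Such reads made up 7.70 to 8.26% of all reads in KO spleen and 8.62 to 9.4% in KO mLN, and their part in the difference was not tested. In their promoters, the letters CCGGAA, the core that ETS factors bind, were found on either strand in 25 of 64 windows (39.1%), beside 13.6% of all genes.

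**Figure D5:**
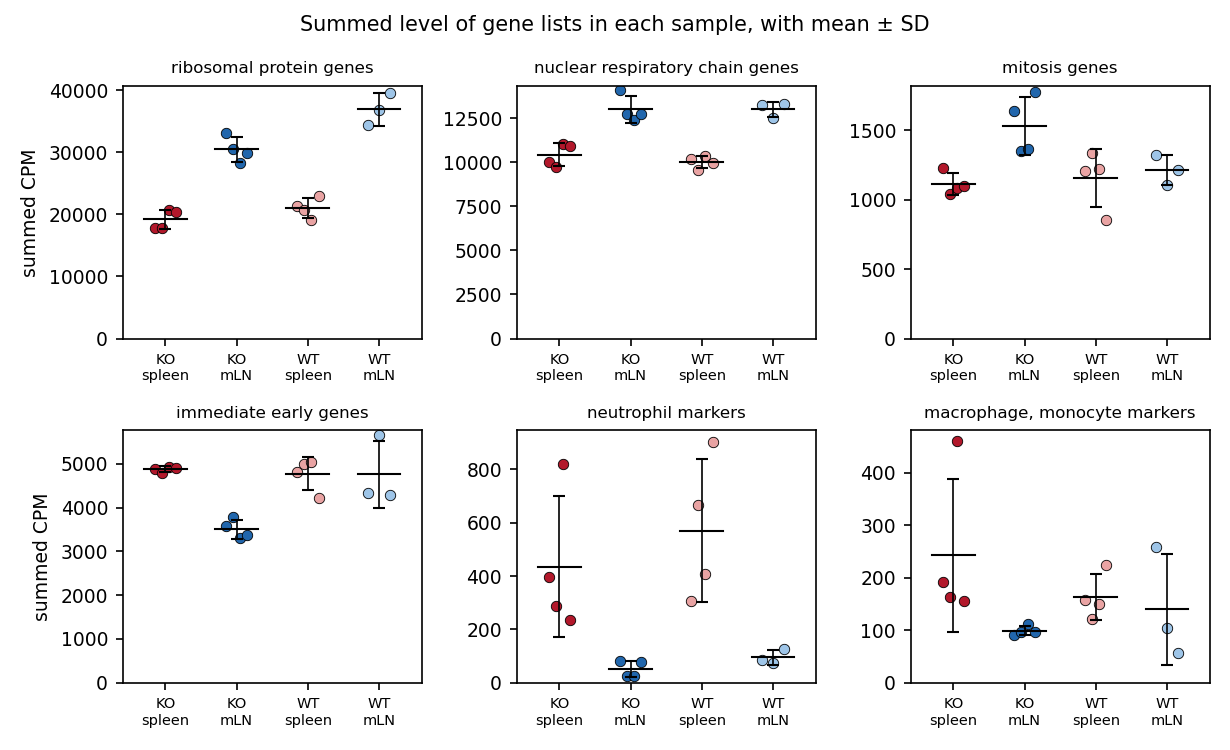
Each point is the CPM summed over the members of a list in 1 sample of KO spleen, KO mLN, WT spleen or WT mLN (4, 4, 4 and 3 samples), with bars for the mean and the SD. In KO cells, ribosomal protein, respiratory chain and mitosis genes lie higher in all mLN samples, and immediate early genes, neutrophil markers and macrophage markers lie higher in all spleen samples.

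Nuclear genes of the respiratory chain followed, with 47 of 86 higher in KO mLN and 0 in spleen (median 0.29). Their summed level was 9727 to 11054 CPM in spleen and 12381 to 14093 CPM in mLN. In WT cells 51 of 86 were higher in mLN. Of 13 protein genes of the mitochondrial genome, 5 had no read in either KO group, which leaves 8 tested, and the cause of the missing reads was not tested. Their summed level was 4840 to 5359 CPM in KO spleen and 5402 to 6214 CPM in KO mLN. By calls the 8 genes did not follow as a group, since 1 was higher in mLN (mt-Nd1, 0.43) and 1 in spleen (mt-Nd6, -0.38), both subunits of complex I. Without KO mLN replicate 2 the mLN count was 2, and without KO mLN replicate 3 both counts were 2. The mitochondrial 12S ribosomal RNA mt-Rnr1 differed far more, at 833, 801, 854 and 749 CPM in KO spleen and 179.9, 167, 177 and 168 CPM in KO mLN (log2 fold change -2.25 ± 0.07, adjusted p = 1.10e-08), and in WT cells likewise (-2.17). All reads on mitochondrial genes made up 0.975 to 1.09% of reads on genes in KO spleen and 0.758 to 0.864% in KO mLN.

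Lipid synthesis genes, some of whose products AMPK restrains, were mostly higher in KO spleen when they differed. Of 29 sterol and fatty acid synthesis genes, 8 were higher in spleen and 3 in mLN. Fasn, the fatty acid synthase, stood at 106, 105, 80 and 93.6 CPM in KO spleen and 38.4, 38.8, 40.2 and 43.01 CPM in KO mLN (log2 fold change -1.28 ± 0.10, adjusted p = 9.76e-06). Srebf2, the master regulator of cholesterol synthesis, stood at 265, 246, 246 and 232 CPM in KO spleen and 123, 108, 133 and 110.1 CPM in KO mLN (log2 fold change -1.08 ± 0.08, adjusted p = 6.72e-06). On the mLN side, besides Elovl6, stood Abca1 and Abcg1, which export cholesterol (log2 fold changes 1.56 and 0.46). Without KO mLN replicate 2, 5 members were higher in mLN. Fasn and Srebf2 differed in the same direction in WT cells (log2 fold changes -1.42 and -0.95).

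Glycolysis genes gave 3 of 19 members higher in mLN, among them the glucose transporter Slc2a1 (log2 fold change 0.63 ± 0.16, adjusted p = 0.0123) and the lactate transporter Slc16a1 (0.43), and 2 in spleen, led by the hexokinase Hk1 (log2 fold change -0.42 ± 0.06, adjusted p = 0.000524). These are 15.8% and 10.5% of the list, beside 11.4% and 13.9% of all genes. Without KO spleen replicate 3 the counts were 6 and 1, and without KO mLN replicate 2 or KO spleen replicate 4 only 1 was higher in spleen. Of 14 amino acid transporters, 3 were higher in mLN, led by Slc43a1, a carrier of large neutral amino acids, at 10.9, 9.52, 5.50 and 5.52 CPM in KO spleen and 19.5, 21.5, 22.01 and 22.6 CPM in KO mLN (log2 fold change 1.42 ± 0.22, adjusted p = 0.000879), and 1 in spleen. Those counts were 1 in mLN without KO spleen replicate 1 or 3 and 0 in spleen without KO mLN replicate 2 or KO spleen replicate 1. Among 11 AMPK subunits and upstream kinases, Prkag1, the γ1 subunit, was higher in mLN (log2 fold change 0.34 ± 0.08, adjusted p = 0.00876), and Stk11, encoding LKB1, the kinase that activates AMPK, was higher in spleen (log2 fold change -0.42 ± 0.08, adjusted p = 0.00284). Camkk2, the calcium-dependent upstream kinase, was also higher in spleen (log2 fold change -0.49 ± 0.13, adjusted p = 0.0182), a call lost without KO spleen replicate 1.

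Interferon-stimulated genes gave few calls. Of 44 antiviral genes, 5 were higher in mLN, led by Slfn1 (log2 fold change 0.54 ± 0.07, adjusted p = 0.000239), and 3 in spleen, led by Oas3 (log2 fold change -0.79 ± 0.12, adjusted p = 0.000636), with a median log2 fold change of 0.02. Of 18 interferon-γ induced GTPases, 3 were higher in mLN, among them Gbp3 (0.54), and 1 in spleen. The mLN count was 1 without KO spleen replicate 2, and the spleen count was 5 without KO mLN replicate 3, 2 without KO spleen replicate 2 and 0 without any other library. Among 21 heat shock chaperones, only Hsp90aa1 was called, at 68.2, 87.7, 128 and 147 CPM in KO spleen and 182, 175, 183 and 311 CPM in KO mLN (log2 fold change 0.96 ± 0.24, adjusted p = 0.0126). Without KO spleen replicate 4, 6 of these genes were higher in mLN.

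The KO organ differences were then set beside those of WT cells, which came from other samples. Of 13945 genes tested in both, the log2 fold changes correlated across genes with Pearson's r = 0.768 and Spearman's rho = 0.741, where genes are not independent replicates. Of the 172 such genes past both limits and higher in KO mLN, 161 (93.6%) had the same sign in WT, and of the 552 higher in KO spleen, 543 (98.4%) did. Over all genes the share was 79.6%. Past both limits in both genotypes were 61 genes higher in mLN, which is 35.5% of the KO list and 37.0% of the WT list, and 296 higher in spleen, which is 53.6% and 60.0%. None was past both limits in opposite directions. Genes past the limits in KO and not in WT are not thereby shown to differ between the genotypes.

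The test of that difference called 0 of 15438 genes with edgeR, where 652 had a p under 0.05 without adjustment, 4 genes with DESeq2 (Cd69, Ppp1r15a, Mpo and Gm43048) and 3 with edgeR and the replicate block (Ppp1r15a, Mpo and Gm43048). In simulated counts for this test, edgeR recovered 48% of planted differences of 1 on the log2 scale and 99% of those of 2. Of the edgeR calls 5.16% fell on unchanged genes, against 11.7% of the DESeq2 calls. The simulation gave every gene the same spread and planted changes only in genes above a minimum mean count. It does not cover genes with a wider spread between samples, so the 0 calls do not show that large differences are absent. Besides the immediate early genes, Gzma had log2 fold changes of 1.04 in KO and 1.83 in WT (interaction adjusted p = 0.825). Slc43a1 had a log2 fold change of 1.42 in KO and 0.03 in WT (interaction adjusted p = 1). Myh9, Tln1, Icos, Rpl6 and Zfp683 had organ differences in WT cells of -1.45, -1.13, 1.21, 1.22 and -2.27.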

How the data were processed

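RNA of sorted T cells was made into libraries with a low-input kit and sequenced as single-end reads. The authors used STAR 2.6.1a with GRCm38 and GENCODE M23 and deposited, for each sample, the number of reads on each of 55421 genes as raw counts without normalization; RSEM and DESeq2 1.22.2 are also in the submitters' processing notes. The strand setting of the counting is not given in the sources used here, so overlapping and antisense genes are uncertain, and reads that matched several places were not counted. The summary lines for unmapped, multimapping, ambiguous and gene-less reads were left out of library sizes and tests. Of uniquely aligned reads, 60.9 to 61.6% in KO spleen and 58.4 to 61.0% in KO mLN lay on no gene. Symbols and positions came from GENCODE M21 on the same build (55154 genes matched).

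Samples were grouped as labelled. KO mLN was tested against KO spleen with edgeR 4.0.16 in R 4.3.3 (filter on low counts, TMM, quasi-likelihood test, Benjamini-Hochberg adjustment over the whole table). Both limits are an adjusted p-value under 0.05 and a log2 fold change beyond 1 in either direction. WT cells were tested alike, and the interaction over all 15 samples. Values after ± are standard errors derived from the quasi-likelihood fit, which include the spread between samples. A group at or under 3 counts was set to that floor for a fold change. These floors cover counting error only, and reads carry no molecular identifiers. The study describes 1 experiment with 4 mice per group, so p-values measure the spread between mice of that experiment; whether a replicate number marks the same recipient in both organs is not stated. Deviations of same-numbered WT samples of the 2 organs correlated at 0.26, 0.24 and 0.29, so the numbers may mark pairs of WT samples, and those of KO samples did not all pass 0.1. None of the main tests used pairing, WT included, and the replicate block was run only as an alternative. With it, 4351 WT genes had an adjusted p under 0.05, against 2980 without it. The genotype, organ and lists were chosen with earlier results of these data known. Genes named are Prkaa1, Prkaa2, per direction the 12 protein-coding genes of lowest p-value that pass both limits with no overlap between groups, and members of the lists; mt-Rnr1 and Gm43048 were named after their values were seen. In simulated counts, in which every gene had the same spread, edgeR recovered 97% of planted changes of 1 on the log2 scale in KO cells. It recovered 99% of those of 2, with 4.39% of calls on unchanged genes, against 12.4% with DESeq2. Genes with a wider spread between samples were not simulated. Alternatives were DESeq2 1.42.0, RLE, upper-quartile and reduced TMM normalization, other filters and limits, a joint fit, the replicate block, each replicate left out and, chosen after seeing the data, offsets for GC content and length. Python 3.11.15 with numpy 2.4.6, pandas 2.3.3 and matplotlib 3.10.9 made tables and plots.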

Additional observations from a re-analysis of the deposited data

Results flagged for a closer look

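Within the KO groups of 4, 22 of 346 sets of values had 1 sample far from the other 3, against about 1 in 20 that chance gives for such sets. In KO mLN, replicate 3 was highest for Ccr9 at 112 CPM (others 32.1 to 45.3), for Gzmk at 709 CPM (others 471 to 503), for Izumo1r at 218 CPM (others 109 to 119.8) and for Cd93 at 0.892 CPM (others 0 to 0.0932). Replicate 4 of KO mLN was highest for Fbn2 at 28.4 CPM (others 13.8 to 15.4) and for Hsp90aa1 at 311 CPM (others 175 to 183), and lowest for Cap1 at 207 CPM (others 234 to 239), for Cd200 at 56.4 CPM (others 60.8 to 61.5) and for St8sia6 at 5.39 CPM (median of the 4, 11.5). The lowest Stk11 value of KO mLN, 119 CPM in replicate 1, stood against 146 to 149.6 CPM in the others.

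In KO spleen, replicate 1 was highest for Kif2c at 13.2 CPM (others 8.91 to 9.57) and for Slfn1 at 229 CPM (others 208 to 211). Replicate 2 was highest for Tigit at 119 CPM (others 108 to 109.6), and replicate 3 was highest for Cd200 at 41.3 CPM (others 28.1 to 30.1) and lowest for Camkk2 at 44.9 CPM (others 50.3 to 50.9). A single read set 1 sample apart from 3 samples at 0 for Mpo in KO mLN replicate 1 (0.0932 CPM), Prss34 in KO mLN replicate 2 (0.0922 CPM) and Prkaa2 in KO spleen replicate 1 (0.103 CPM).

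Among summed lists, macrophage and monocyte markers reached 459 CPM in KO spleen replicate 3 (others 156 to 192), dendritic cell markers 985 CPM in KO mLN replicate 2 (others 382 to 417), DNA replication genes 2909 CPM in KO spleen replicate 1 (others 2448 to 2493) and amino acid transporters 1609 CPM in KO spleen replicate 4 (others 1434 to 1454). The part of cell makeup in these values was not tested.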

How the results depend on the processing

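The 763 genes past both limits in KO cells became 503 with at least 10 counts in every sample, 1217 without the filter, 3602 without the fold limit and 106 with a test against a log2 fold change of 1, and 653 to 874 without 1 replicate. In WT cells, 723 genes became 1205 without the filter, 2980 without the fold limit and 46 with the test against 1, and the 357 genes shared by KO and WT became 2062 without the fold limit. The interaction, with 0 genes, gave 4 with DESeq2, 112 without the filter and 3 with the replicate block, and 0 under every other alternative run, fits without 1 replicate included. The cause of these changes was not tested, except that a limit left out or made stricter changes a count by construction. Of 129 genes named and fitted, 0 reversed under the alternatives run. In the joint fit of 15 samples, 9 lost their call, among them Il7r (adjusted p = 0.0512), mt-Nd6 (adjusted p = 0.0889), Abcg1 (adjusted p = 0.0755) and Gbp3 (adjusted p = 0.102). Cd8b1 was called with DESeq2 (adjusted p = 0.0427), and without the filter Foxp3 (adjusted p = 0.000494) and Il2ra (adjusted p = 4.42e-10) were called. The correlations of deviations between same-numbered KO samples of the 2 organs were 0.04, 0.17, 0.03 and 0.26, so pairing was not shown for KO cells. Those of WT samples were 0.26, 0.24 and 0.29, so the numbers may mark pairs there, but the labels do not say. KO mLN replicate 3 and KO spleen replicates 1 and 3 did not correlate best with the sample of their own number in the other organ. KO replicates 2 and 4 of both organs did. With the replicate block, 796 genes were past both limits in KO and 849 in WT cells, the calls came to 74 for ribosomal protein genes (74 without it), 52 for mitochondrially encoded and respiratory chain genes (49 without it) and 204 over all lists (168 without it), and Il2ra was called (adjusted p = 0.0341). Genes at or under 3 counts in both groups give no fold change at this depth.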
